A study of Homo sapiens with 18 samples.

Results

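The IL-1β response of ERH-targeted cells was read from 6 of the 18 libraries of the series, 3 sgERH libraries given 10 ng/mL IL-1β for 4 h and 3 sgERH libraries left non-treated (NT). All cells were RKO-dox-Cas9, a clone grown from a single cell of the human colon carcinoma line RKO that makes Cas9 when doxycycline is added. They carried a lentiviral guide RNA against ERH (sgERH), which encodes a small conserved protein of RNA-processing complexes, or against the AAVS1 safe-harbour locus (sgAAVS1), were sorted for guide expression and received 100 ng/mL doxycycline for 5 days, the non-treated and sgAAVS1 cells included. Each library holds reads from the 3′ ends of polyadenylated transcripts (QuantSeq). The sgAAVS1 libraries used for comparison numbered 2 non-treated and 2 with IL-1β, after the study had set aside 1 of each. Both guides were also given 25 ng/mL IFNγ for 4 h, and the 5 IFNγ libraries that the study kept entered the same model, where they share in the estimate of the spread.

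IL-1β binds a receptor of IL1R1 and IL1RAP, which gathers the adaptor MYD88, the IRAK kinases and the ubiquitin ligase TRAF6 and switches on the kinase MAP3K7 (TAK1) with its partner TAB2. The IKK complex then marks the inhibitor IκBα, encoded by NFKBIA, for destruction. NF-κB dimers of subunits such as RELA, REL and NFKB1 then enter the nucleus and bind κB sites in promoters. Their targets include neutrophil chemokines, colony-stimulating factors, survival genes and the pathway's own inhibitors, and some of the induced mRNAs are later cut by the ribonuclease encoded by ZC3H12A.

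IL-1β raised 36 genes in sgERH cells, headed by neutrophil chemokines, the granulocyte growth factor CSF3 and NF-κB targets such as ICAM1, TRAF1, BIRC3 and NFKBIA, and 3 genes fell. These were 0.269% and 0.0224% of the 13370 genes tested (0.292% together) by the quasi-likelihood test of edgeR, at a Benjamini-Hochberg adjusted p of at most 0.05 and a change of at least 2-fold, the thresholds for "rose" and "fell" here. At the adjusted p alone 97 genes were higher, 0.726% of those tested. A value with ± is a log2 fold change with its standard error unless named otherwise, and levels are CPM, read counts scaled to the library's total and its TMM factor. Of the 36 risen genes, 14 were called in each of the 6 fits that left out 1 of the 6 sgERH libraries. Those 14 were CXCL1, CXCL2, CXCL3, CXCL8, CSF3, ICAM1, TRAF1, BIRC3, TNFAIP8, TNFAIP2, NINJ1, CD83, NFKBIA and LINC02605.

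The 6 libraries held between 5157303 and 5580416 counts. IL-1β replicate 2 stood apart from its group. Over 8793 genes with a mean of at least 10 CPM its log2 levels deviated from the mean of the other replicates with an SD of 0.469, against 0.271 and 0.341 for IL-1β replicates 1 and 3 and 0.198 to 0.232 for the NT libraries (8727 genes). In it 381 genes were over 2-fold lower and 25 over 2-fold higher than in the other IL-1β replicates. Multimapping reads made up 23.2% of it and 21.1% to 21.6% of the other libraries, and nuclear copies of mitochondrial genes took 9.95% of its reads against 8.47% to 8.76%. The response was therefore also fitted without this library, and its values are given beside the genes and lists below. Of 14 epithelial markers 4 (EPCAM, CDX2, KRT8 and KRT18) averaged at least 1 CPM and 5 had 0 reads, with a sum over the 14 of 102 to 126 CPM, while 10 of 14 leukocyte markers and 10 of 12 fibroblast and endothelial markers had 0 reads, and CD68, a lysosomal protein gene, carried nearly all of the leukocyte sum (420 to 486 CPM). ERH itself stood at 323, 264 and 308 CPM without and at 340, 253 and 279 CPM with IL-1β, against 636 and 576 CPM on average in sgAAVS1 cells. Without treatment ERH was lower in sgERH than in sgAAVS1 by −1.09 on the log2 scale (adjusted p = 8.03e-08), and since 3′ tags count transcripts they do not show whether the gene was cut. In these bulk samples fewer cells of a type and less RNA per cell cannot be told apart.

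The DNA just before the start of several of these genes carries the κB consensus, the decamer that NF-κB dimers bind. It is shown here for genes whose levels are described next, and for FJX1, whose change was under 2-fold without IL-1β replicate 2. The 120 bases before the start (RefSeq, GRCh38.p14, printed 5′ to 3′ along the gene) are in lower case with each match to the κB consensus in capitals. They lie at chr4:73869273-73869392 (+) for CXCL1, chr4:74099196-74099315 (−) for CXCL2, chr4:74038690-74038809 (−) for CXCL3, chr14:35404750-35404869 (−) for NFKBIA, chr2:60881454-60881573 (+) for REL, chr11:35618340-35618459 (+) for FJX1 and chr4:73740449-73740568 (+) for CXCL8. The consensus was searched in its strict form, which begins with GGG and ends with CC, so the ggaatttcc in CXCL8, a known κB site of that promoter, was not counted and is not in capitals. Starts here are those of RefSeq, and the GENCODE starts of CXCL2, CXCL3, CXCL8 and REL lie inside the printed stretches.
CXCL1: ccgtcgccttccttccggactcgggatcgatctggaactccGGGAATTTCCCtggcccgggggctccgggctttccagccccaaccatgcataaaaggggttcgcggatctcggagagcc
CXCL2: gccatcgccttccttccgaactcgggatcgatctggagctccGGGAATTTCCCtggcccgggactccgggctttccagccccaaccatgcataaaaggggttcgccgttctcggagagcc
CXCL3: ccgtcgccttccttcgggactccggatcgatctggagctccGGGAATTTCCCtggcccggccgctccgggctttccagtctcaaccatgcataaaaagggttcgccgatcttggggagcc
NFKBIA: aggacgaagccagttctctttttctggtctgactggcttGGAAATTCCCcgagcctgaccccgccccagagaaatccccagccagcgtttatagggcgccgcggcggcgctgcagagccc
REL: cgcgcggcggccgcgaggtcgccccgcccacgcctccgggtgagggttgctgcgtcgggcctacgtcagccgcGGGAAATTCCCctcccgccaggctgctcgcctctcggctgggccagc
FJX1: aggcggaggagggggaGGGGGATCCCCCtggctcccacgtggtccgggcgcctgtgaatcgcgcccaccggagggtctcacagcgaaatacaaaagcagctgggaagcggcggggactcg
CXCL8: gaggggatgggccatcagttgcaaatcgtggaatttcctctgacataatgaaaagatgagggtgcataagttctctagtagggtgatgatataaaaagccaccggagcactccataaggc
The 3 CXCL promoters carry the same run of capital letters, in which the consensus is met on both strands in overlapping frames and starts 79, 78 and 79 bases before the start for CXCL1, CXCL2 and CXCL3. CXCL1 and CXCL3 share 109 of the 120 bases in this stretch. In NFKBIA the match lies on the opposite strand 81 bases before the start, in REL 47 bases before it, and in BIRC3, whose stretch is not printed, 199 and 135 bases before it.

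In the full windows of 250 bases before to 50 after the start, 22 of the 36 risen genes were found in the table of promoters, and 7 of these (31.8%) held the κB consensus on either strand. The share was 5.72% of all 27305 promoters and 6.59% of the 9138 promoters of tested genes. Among the 13 genes risen under both guides that have a promoter in the table, 6 held it, and among the 9 risen in sgERH but not called in sgAAVS1, 1 did, which was FJX1. Of the 14 that were also called without IL-1β replicate 2, 5 held it. ICAM1, TRAF1, TNFAIP2, CD83, ZC3H12A and CXCL8 were among the risen genes with no match, and these shares count the strict form only. The AP-1 motif, TGACTCA or TGAGTCA on either strand, was in 1 of the 22, the CXCL8 promoter at 137 bases before the start, where no counted κB match overlapped it, and in 2.95% of the promoters of tested genes. These matches are descriptions of letters in a window, and no binding was measured.

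The neutrophil chemokines CXCL1, CXCL3 and CXCL8 had the largest fold changes of the risen genes with reads in both groups, followed by LINC02605 and CXCL2. CXCL1 (chromosome 4, 73869393 to 73871308) stood at 2.78, 1.80 and 1.53 CPM in NT replicates 1 to 3 and at 39.4, 35.1 and 55.6 CPM with IL-1β, so that every IL-1β library lay far above every NT library (log2 fold change 4.40 ± 0.28, adjusted p = 3.22e-11). CXCL3 went from 2.78, 3.60 and 2.72 CPM to 35.7, 30.3 and 38.4 CPM (3.51 ± 0.25). CXCL8, the interleukin-8 gene, went from 1.74, 1.44 and 2.72 CPM to 18.9, 16.4 and 32.3 CPM (3.50 ± 0.33). CXCL2 was the scarcest and the most variable of the 4, at 0.348, 1.26 and 1.02 CPM before and 5.13, 3.43 and 15.3 CPM after IL-1β (3.16 ± 0.56, adjusted p = 0.00326). Replicate 2 was the lowest IL-1β library for all 4, and without it the changes were 4.52, 3.59, 3.67 and 3.50 for CXCL1, CXCL3, CXCL8 and CXCL2, all called. The CXCL2 value rested in part on replicate 3, without which it was 2.27 (adjusted p = 0.0339).

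These 4 genes lie within 358678 bases of chromosome 4, from the start of CXCL8 at 73740519 to the end of CXCL2 at 74099196. Of the 9 protein-coding genes of that interval that the tables list, CXCL6, PF4V1, PF4, PPBP and CXCL5 had 0 reads in all 6 libraries. A total of 0 reads over the 3 IL-1β libraries allows a level of up to 0.181 CPM (3 reads over the group, counting error only). In the chemokine list 4 of 6 tested members rose, with a median log2 fold change of 3.33 against 0.01 over all genes tested (3.55 without replicate 2), and the other 8 of its 14 members had 0 reads in the 6 libraries. CCL20, a ligand of CCR6, was seen in 1 read in each NT library and reached 0.531, 1.33 and 2.81 CPM with IL-1β (3.00 ± 0.94, adjusted p = 0.134), short of the threshold although the groups did not overlap. CXCL2 and CCL20, scarce without treatment, could be tested because of their treated libraries, which favours risen members in the list's share and median. CXCL16, a transmembrane chemokine, had 58.8, 60.6 and 53.7 CPM before and 52.9, 56.0 and 49.3 CPM after (−0.13 ± 0.12, adjusted p = 0.668).

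**Figure D1:**
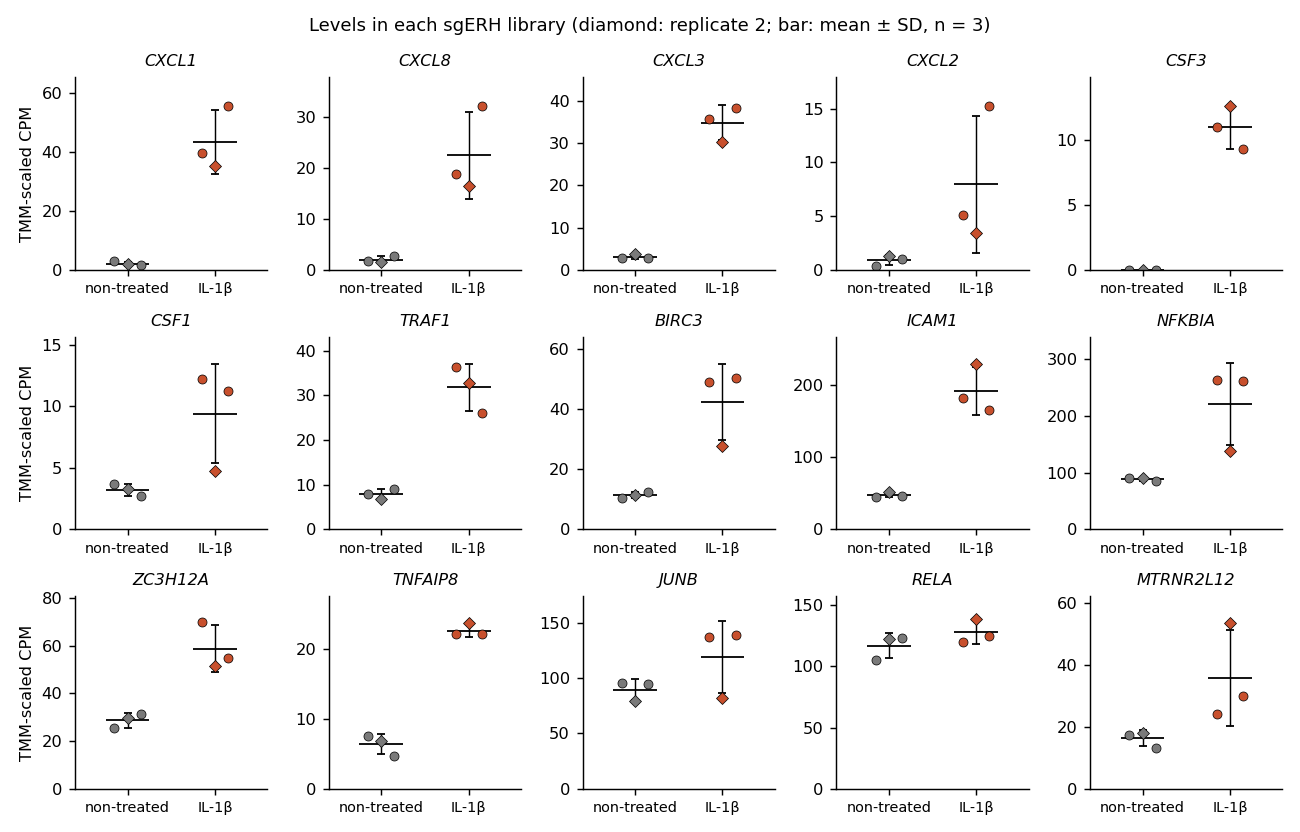
TMM-scaled CPM (y axis, from 0) in the 3 non-treated and 3 IL-1β sgERH libraries for 15 genes, with diamonds for replicate 2 and bars for the mean ± SD (n = 3). CXCL1 rises from 1.53 to 2.78 CPM to between 35.1 and 55.6 CPM, replicate 2 lies lowest for NFKBIA and BIRC3 and highest for ICAM1 and MTRNR2L12, and the groups overlap for JUNB and RELA.

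Among cytokines and growth factors, CSF3 went from no reads to a measurable level. It had 0 reads in the 3 NT libraries and 11.0, 12.6 and 9.30 CPM with IL-1β, at least 62.7-fold above the level that 3 reads over the NT group would give (adjusted p = 1.88e-06). CSF1, the macrophage growth factor, rose from 3.65, 3.24 and 2.72 CPM to 12.2, 4.77 and 11.2 CPM (1.55 ± 0.33, adjusted p = 0.0174). Replicate 2 held less CSF1 than the other IL-1β libraries, and without it the change was 1.85 ± 0.30. The call was lost when any NT library or IL-1β replicate 1 was left out (adjusted p up to 0.102). LIF, an interleukin-6 family cytokine, spanned 1.44 to 4.42 CPM before and 3.62 to 17.4 CPM after (1.64 ± 0.55, adjusted p = 0.190), and it was called only without replicate 2 (2.01 ± 0.45, adjusted p = 0.0270). IL11, another cytokine gene of that family, was at 162, 158 and 156 CPM before and 147, 116 and 125 CPM after IL-1β (−0.30 ± 0.11, adjusted p = 0.190). Of the 29 genes of this list 11 were tested and 2 rose (median log2 fold change 0.55, or 0.43 without replicate 2). CSF3, with 0 reads in NT, could be tested only through treated libraries, which favours risen members here too. IL6, CSF2 and TNF were among the 7 with 0 reads in the 6 libraries.

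The adhesion molecule ICAM1 (chromosome 19, 10271093 to 10286615) had the smallest standard error of the 36 risen genes. It had 45.2, 52.1 and 46.3 CPM without and 182, 229 and 165 CPM with IL-1β (2.00 ± 0.12, adjusted p = 8.83e-12). Here replicate 2 was the highest library, and without it the change was 1.85 ± 0.10. CD83, a surface protein of activated immune cells, rose from 13.4, 11.4 and 9.69 CPM to 24.2, 44.6 and 26.7 CPM (1.47 ± 0.21, or 1.14 ± 0.20 without replicate 2). The transcription factor IRF1 had 30.4, 25.6 and 27.9 CPM before and 52.9, 52.0 and 50.9 CPM after (0.89 ± 0.11, adjusted p = 1.72e-05, or 0.88 without replicate 2), a tight separation that stayed under 2-fold. Of the 14 tested members of the surface, protease and acute-phase list 2 rose (median 0.26, or 0.39 without replicate 2), and 21 of its 35 members were too low to test, 11 of them with 0 reads. PTGS2, the inducible cyclooxygenase, was among the untested, with 0, 0 and 3 reads before and 2, 4 and 10 reads after IL-1β.

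Survival genes and TRAF adaptors gave 2 risen members of 16, all tested (median 0.33, or 0.32 without replicate 2). TRAF1 stood at 7.83, 6.85 and 9.01 CPM without and 36.4, 32.8 and 26.1 CPM with IL-1β (2.00 ± 0.23, adjusted p = 4.27e-06, or 1.97 without replicate 2). BIRC3, which encodes the ubiquitin ligase cIAP2, went from 10.4, 11.5 and 12.2 CPM to 48.8, 27.8 and 50.4 CPM (1.89 ± 0.23, adjusted p = 2.21e-05). Replicate 2 held the least BIRC3 of the IL-1β group, and without it the change was 2.11 ± 0.20. SOD2, the mitochondrial superoxide dismutase, had 48.0, 61.1 and 53.1 CPM before and 98.4, 92.8 and 125 CPM after (0.96 ± 0.13, adjusted p = 7.72e-05), just under 2-fold, and without replicate 2 it was called at 1.04 ± 0.12. Its reads were 22.6% multimapping. For BIRC2, the constitutive relative of BIRC3 that encodes cIAP1, values were 150, 146 and 144 CPM before and 185, 176 and 183 CPM after (0.30 ± 0.09, adjusted p = 0.104).

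Of the list of feedback inhibitors NFKBIA rose, and so did TNFAIP8, which the list holds although it is not an established NF-κB inhibitor. TNFAIP8, a TNF-induced regulator of apoptosis (chromosome 5, 119268692 to 119399688), rose from 7.48, 6.85 and 4.76 CPM to 22.1, 23.6 and 22.1 CPM (1.83 ± 0.23, adjusted p = 1.41e-05, or 1.79 without replicate 2), and its 3 IL-1β libraries lay close together. NFKBIA (chromosome 14, 35401079 to 35404749) had 90.0, 89.8 and 85.02 CPM without and 263, 138 and 262 CPM with IL-1β (1.33 ± 0.17, adjusted p = 3.95e-04). Replicates 1 and 3 of NFKBIA nearly coincided, while replicate 2 lay nearer to the NT level than to them, and without it the change was 1.56 ± 0.09. Inhibitors past the adjusted p but under 2-fold were NFKBIZ (0.70 ± 0.15), TNIP1 (0.65 ± 0.14) and NFKBIE (0.63 ± 0.15), and without replicate 2 TNIP1 (adjusted p = 0.0516) and NFKBIE (adjusted p = 0.0735) were no longer past it. TNFAIP3, which encodes the deubiquitinase A20, had 0.696, 1.26 and 2.89 CPM before and 4.78, 5.34 and 4.74 CPM after (1.59 ± 0.50, adjusted p = 0.126). Of 13 tested members of this list 2 rose, TNFAIP8 included (median 0.63, or 0.43 without replicate 2), and TNIP3, untested, had 2, 1 and 0 reads before and 2, 16 and 8 after.

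Of the NF-κB subunits 4 passed the adjusted p. REL, which encodes c-Rel, was the only risen member of the 12 tested genes of the IKK and subunit list, from 11.7, 15.5 and 11.4 CPM to 23.7, 29.9 and 25.8 CPM (1.04 ± 0.19, adjusted p = 0.00338), and without replicate 2 it was under the fold threshold (0.94 ± 0.20). NFKB2 went from 45.4, 47.9 and 46.6 CPM to 84.6, 96.1 and 73.0 CPM (0.86 ± 0.13, or 0.75 without replicate 2). RELB (0.77 ± 0.11) and NFKB1 (0.71 ± 0.12) were also past the adjusted p, at 2.25e-04 and 0.00172, and under 2-fold, with values of 0.70 and 0.81 without replicate 2. RELA, the subunit that enters the nucleus first, had 105, 122 and 123 CPM before and 120, 139 and 125 CPM after (0.13 ± 0.10, adjusted p = 0.599), and the groups overlapped.

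Upstream of NF-κB no gene was called. Of 21 genes of the IL-1 receptor complex and its adaptors 15 were tested and 0 were called (lowest adjusted p = 0.176, median log2 fold change 0.10). The receptor gene IL1R1 was barely seen, with 5, 1 and 1 reads before and 1, 4 and 2 after. MYD88 had 18.4, 18.02 and 14.8 CPM before and 21.9, 11.8 and 26.3 CPM after (0.23 ± 0.22, adjusted p = 0.682). TRAF6 differed by −0.10 ± 0.25 and MAP3K7 by −0.37 ± 0.13 (adjusted p = 0.176). TAB2 had 31.5, 30.1 and 36.0 CPM before and 50.6, 29.2 and 52.6 CPM after (0.44 ± 0.18, adjusted p = 0.271), and without replicate 2, which lay at the NT level, it passed the adjusted p at 0.66 ± 0.15 (adjusted p = 0.0148) and stayed under 2-fold.

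**Figure D2:**
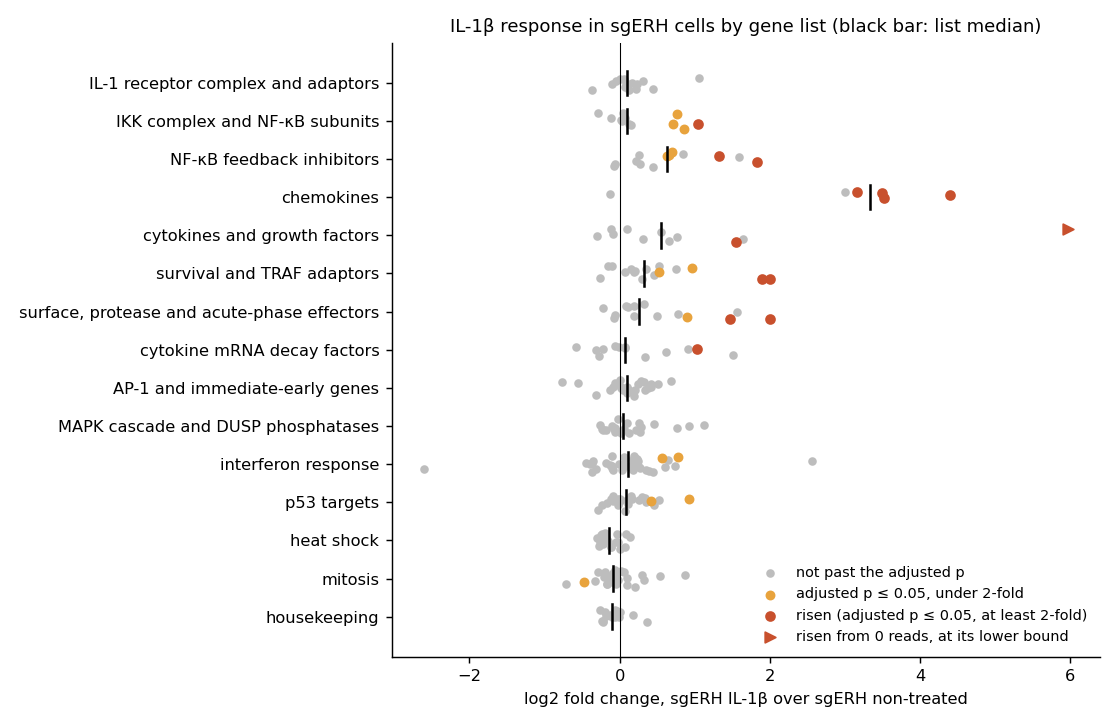
Log2 fold change with IL-1β in sgERH cells (x axis) for each tested member of 15 gene lists (rows), with list medians as black bars and CSF3, which had 0 reads before treatment, drawn at its lower bound of 5.97. Risen genes (orange) lie in the NF-κB lists and include ZC3H12A of the decay list, and the AP-1, MAPK, interferon, p53, heat shock, mitosis and housekeeping lists have none.

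Over the 6 NF-κB lists together, 13 of 72 tested members rose and 0 fell, against 0.269% of all genes tested, and 22 were past the adjusted p, all higher. All 3 IL-1β libraries lay above all 3 NT libraries for 35 of the 72 and below them for 3, where 16.3% of all genes tested separated in either direction. The median log2 fold change was 0.40. Without replicate 2 the count was 15 of these members, against 0.233% of genes risen and 0.00752% fallen in that fit, with LIF, PLAU and SOD2 called in addition and REL under the fold threshold. The lists hold 120 genes, of which 48 were not tested and 26 had 0 reads in the 6 libraries. They were chosen with earlier results of these data known, and genes scarce without treatment could be tested through treated libraries. These shares therefore describe the lists and are not separate evidence of a response.

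Genes of the other branch of IL-1 signalling, to MAP kinases and AP-1, were not called. Transcripts were read at 4 h alone and kinase activity was not measured, so whether this branch was engaged was not tested. Of 25 tested AP-1 and immediate-early genes 0 were called (median 0.10), and of 22 MAPK and DUSP genes 0 (median 0.04). JUNB had 95.9, 78.9 and 94.2 CPM before and 137, 82.0 and 139 CPM after (0.41 ± 0.16, adjusted p = 0.249). Replicate 2 again lay at the NT level, and without it JUNB was past the adjusted p at 0.61 ± 0.11 (adjusted p = 0.00101) and under 2-fold. FOS differed by 0.69 ± 0.29 (adjusted p = 0.281) and ATF3 by 0.38 ± 0.33 (adjusted p = 0.659). In the 20 AP-1 and immediate-early genes with at least 10 CPM the median of replicate 2 against the other IL-1β replicates was −0.27 on the log2 scale, and in the 11 decay factors it was −0.26, with 10 of 11 lower, against 0.02 over all genes at that level. It was lower still in the chemokines (−0.35, only 4 genes at that level) and the ATF4 list (−0.32, 13 genes). The median was above 0 in the IKK and subunit (0.18, 11 genes), IL-1 receptor (0.17, 11 genes) and feedback inhibitor (0.12, 12 genes) lists.

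The ribonuclease gene ZC3H12A, whose protein cuts chemokine and cytokine mRNAs, rose from 25.4, 29.6 and 31.5 CPM to 69.9, 51.7 and 54.9 CPM (1.03 ± 0.15, adjusted p = 1.29e-04), the single call among 13 tested decay factors. The log2 fold change ranged from 0.89 to 1.10 when 1 of the 6 libraries was left out, so that it crossed the 2-fold line in 2 of those fits. ZFP36, which encodes the AU-rich element binding protein tristetraprolin, had 1.04, 1.08 and 2.04 CPM before and 4.95, 2.86 and 4.21 CPM after (1.51 ± 0.42, adjusted p = 0.0847). ZFP36L1 was far more abundant, at 2072, 2229 and 2104 CPM before and 2032, 1250 and 1890 CPM after (−0.31 ± 0.12, adjusted p = 0.219), with replicate 2 alone far below the NT range.

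Of 39 tested interferon response genes 0 were called, and IRF2 (0.77 ± 0.16, adjusted p = 0.0176) and GBP3 (0.57 ± 0.14, adjusted p = 0.0462) passed the adjusted p under 2-fold. Without replicate 2 IRF2 was at 0.68 (adjusted p = 0.0340) and GBP3 at 0.43 (adjusted p = 0.147). GBP2, a guanylate-binding GTPase, had 1.04, 0.180 and 0.510 CPM before and 5.66, 1.91 and 2.98 CPM after (2.56 ± 0.67, adjusted p = 0.0640), and it was called without replicate 2 (2.83 ± 0.67). Among 24 tested p53 targets 0 were called, and the death receptor gene FAS (0.92 ± 0.21, adjusted p = 0.0236) and GADD45A (0.42 ± 0.10, adjusted p = 0.0361) were past the adjusted p and under 2-fold, at 0.97 and 0.37 without replicate 2. In the mitosis list AURKA, the spindle kinase, was lower at 46.9, 46.5 and 51.2 CPM than at 66.5, 69.4 and 64.4 CPM (−0.47 ± 0.11, adjusted p = 0.0261), the only one of 33 past the adjusted p. Without replicate 2 AURKA was at −0.45 (adjusted p = 0.0240), but it missed the threshold in 4 of the 6 fits that left out 1 library (adjusted p up to 0.182) and with the compared groups only (0.276). IRF2, GBP3, FAS and GADD45A likewise each missed it in 2 or more of those 6 fits. The ATF4 stress, heat shock, DNA replication and housekeeping lists held 0 genes past it, with medians of −0.07, −0.14, −0.02 and −0.10.

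The remaining risen genes divided by whether the call held without replicate 2. LINC02605, a long noncoding RNA of chromosome 8, rose from 1.39, 1.80 and 0.680 CPM to 13.97, 8.20 and 14.7 CPM (3.24 ± 0.36, adjusted p = 1.99e-06) and held at 3.45. TNFAIP2, a TNF-induced gene, rose from 17.7, 12.6 and 20.2 CPM to 49.7, 31.6 and 57.6 CPM (1.46 ± 0.20, or 1.66 without replicate 2) and NINJ1, which encodes a protein of plasma membrane rupture, from 48.2, 41.6 and 43.0 CPM to 103, 129.99 and 106 CPM (1.35 ± 0.13, or 1.23 without replicate 2). AMPD3, an AMP deaminase gene, rose from 16.5, 13.2 and 16.2 CPM to 33.8, 32.8 and 30.5 CPM (1.08 ± 0.20) and held at 1.06.

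Of the 39 called genes, 19 were also called without replicate 2, 8 stayed past the adjusted p under 2-fold and 12 were over the adjusted p. In 18 of those 20 lost calls replicate 2 was the outermost IL-1β library in the direction of the change, and in 5 of the 19 that held it was the highest. Picking calls that are lost without replicate 2 favours this order, so these counts are not a separate result. The 19 included the 4 CXCL genes, CSF3, CSF1, ICAM1, NFKBIA, TRAF1, BIRC3, TNFAIP8 and ZC3H12A. Among the lost calls were 4 nuclear copies of mitochondrial genes or relatives of them (MTND4P13, MTCYBP35, MTCO1P53 and MTRNR2L12) and SMN1, whose reads were 100% multimapping. MTRNR2L12 had 17.4, 18.02 and 13.3 CPM before and 24.1, 53.4 and 30.005 CPM after (1.14 ± 0.24, or 0.73 ± 0.20 without replicate 2), and 81.3% of its reads were multimapping. YBEY, FJX1 and IL17RC, a subunit gene of the interleukin-17 receptor, were at 0.93, 0.96 and 0.87 without it. The 3 fallen genes, the purinergic receptor gene P2RY1 (−1.19 ± 0.29), RPL34P31 (−1.20 ± 0.20) and AC009948.1 (−1.21 ± 0.25), were all lowest in replicate 2, and none was called without it. In all 32 genes were called without this library (31 risen and 1 fallen), 13 of them only there, among them GBP2, LIF, PLAU and SOD2. How far the state of that library enters the lost calls was not tested.

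**Figure D3:**
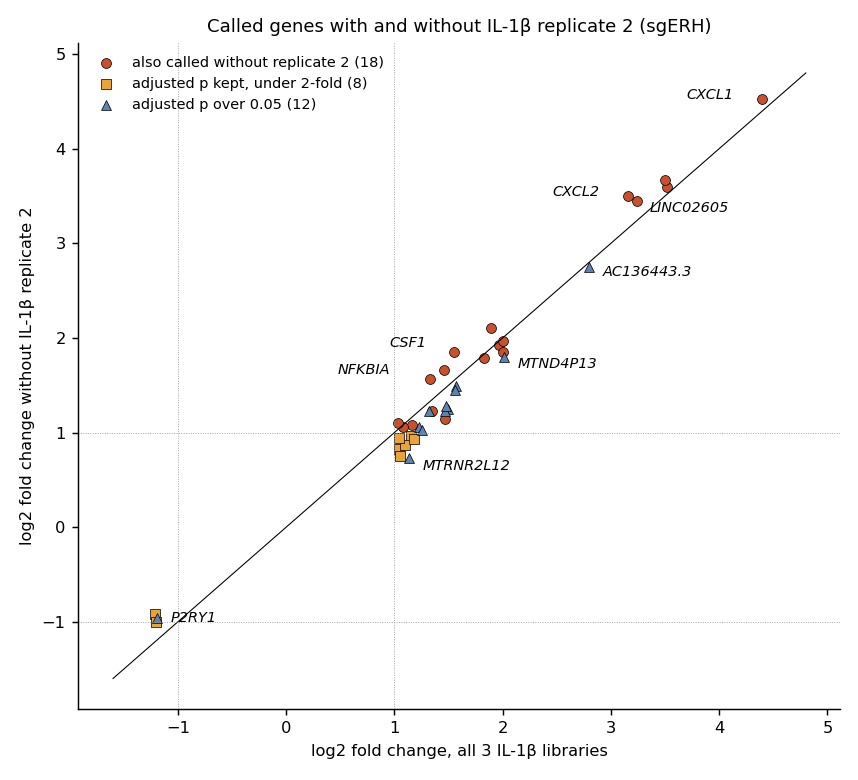
Log2 fold change from all 3 IL-1β libraries (x axis) against that without IL-1β replicate 2 (y axis) for the called genes with reads in both groups, with the line of equality and dotted lines at 2-fold. The 18 genes also called without it (circles, CSF3 not drawn) reach 4.52 for CXCL1, while the 8 squares lie under 2-fold and the 12 triangles passed only with it.

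The called genes also depended on other libraries. Of the 39, 18 were called without sgERH_NT replicate 2, where 19 genes were called in all, and 35 without sgERH_IL-1β replicate 3, where 87 were called. With the 2 compared groups alone in the fit 17 of the 39 were called, and with all 18 libraries, the set-aside ones included, 7 were, namely CXCL1, CXCL3, CXCL8, CSF3, ICAM1, TNFAIP8 and LINC02605. The labels call the replicates biological without saying whether each was its own culture, so the spread behind every p-value is that of the libraries and may be technical.

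The response was compared with that of sgAAVS1 cells, where 84 genes rose (0.628% of those tested). The 16 genes risen under both guides were 44.4% of the sgERH list and 19.0% of the sgAAVS1 list, and 76 of the 84 had a log2 fold change above 0 in sgERH. For 13 of the 16 the fold change was smaller in sgERH, with a median of 1.98 against 3.29. These genes had to be called in sgAAVS1 from 2 libraries per group, which favours large fold changes there. Single control libraries also moved such gaps. For CXCL3 the difference was −0.53, but 0.07 without sgAAVS1_NT replicate 2 and −1.82 without sgAAVS1_NT replicate 3. The difference between guides in the response was called for 0 genes (0.0%) by edgeR, whose lowest adjusted p was 0.204, for 1487 at an unadjusted p under 0.05, and for 2 by DESeq2. The lowest p-values among genes called under either guide were those of ZC3H12A (−1.15 ± 0.25), ICAM1 (−0.88 ± 0.20) and NFKBIA (−1.38 ± 0.28), each with an adjusted p of 0.204. Without replicate 2 the difference was called for 5 genes, all smaller in sgERH, and NFKBIA (−1.13 ± 0.15, adjusted p = 2.05e-05) and ICAM1 (−1.03 ± 0.16, adjusted p = 0.00105) were among them. Without sgERH_IL-1β replicate 3 it was called for 140 genes.

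The levels behind those fold changes were compared between guides before and after treatment. Of the 16 shared genes 9 were called higher in sgERH than in sgAAVS1 without treatment, where 5.95% of genes tested were higher, and 3 with IL-1β, where 5.68% were. NFKBIA averaged 36.9 CPM in sgAAVS1 and 88.2 CPM in sgERH without treatment (sgERH over sgAAVS1 1.26, adjusted p = 2.87e-04) and 241 and 221 CPM with IL-1β (−0.13, adjusted p = 0.667). ICAM1 averaged 22.4 and 47.9 CPM before and 165 and 192 CPM after, a difference of 142 CPM under sgAAVS1 and 144 CPM under sgERH. Both sgERH means with IL-1β depend on replicate 2. It held 138 CPM of NFKBIA, while replicates 1 and 3 held 263 and 262 CPM, above the sgAAVS1 mean. For ICAM1 it held 229 CPM against 182 and 165 CPM, so without it the ICAM1 difference under sgERH was smaller. TRAF1 averaged 2.01 and 7.90 CPM before and 23.98 and 31.8 CPM after, and BIRC3 3.20 and 11.4 CPM before and 38.5 and 42.3 CPM after. The sgERH and sgAAVS1 comparisons of response share their libraries with these comparisons of level, so the values are given side by side and not as separate evidence. For CSF3 the order was the other way, with 1.73 CPM in sgAAVS1 and 10.9 CPM in sgERH under IL-1β (sgERH over sgAAVS1 2.64, adjusted p = 6.29e-04) and 0 reads in both non-treated groups. AC083837.1 and LINC02605 were the other shared genes called higher in sgERH with IL-1β.

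Some genes were called in sgERH alone. All 20 genes risen in sgERH and not called in sgAAVS1 had the larger fold change in sgERH, as that choice favours, and for none was the difference called. Of all 36 risen genes 19 were also called without IL-1β replicate 2, with TNFAIP8 but not FJX1 among them. Some of the 20 calls therefore rest on that library, and a response particular to sgERH was not shown. TNFAIP8 averaged 12.9 CPM before and 17.7 CPM after IL-1β in sgAAVS1 (0.45 ± 0.26, adjusted p = 0.508), against 6.36 and 22.6 CPM in sgERH, a difference of 1.38 ± 0.35 (adjusted p = 0.268). Before treatment TNFAIP8 was lower in sgERH by 1.02 on the log2 scale (adjusted p = 0.00408), and with IL-1β the guides differed by 0.35 (adjusted p = 0.276). FAS and IRF1 passed the adjusted p in sgERH but stayed under 2-fold, so they were not among the 20. For FAS the values were 11.0 and 9.98 CPM in sgAAVS1 and 10.2 and 19.3 CPM in sgERH (difference 1.06 ± 0.34, adjusted p = 0.322), and for IRF1 22.8 and 30.4 CPM against 28.0 and 51.9 CPM (difference 0.47 ± 0.19, adjusted p = 0.387).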

How the data were processed

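The authors trimmed the QuantSeq reads and checked them with FastQC 0.11.8 (trimmer Trim Galore 0.6.2, both named in the submitters' processing notes), aligned them to GRCh38 using SlamDunk, and assigned them to 3′ end windows that were collapsed by gene symbol. What they deposited and what was used here are read counts, whole numbers without normalization or molecular identifiers, so floors cover counting error only. A count table holds 3′ ends and says nothing of splicing. The other deposited columns (T-to-C read counts and CPM) were not used, apart from multimapping counts.

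Testing used edgeR 4.0.16 in R 4.3.3 (quasi-likelihood F test, robust option, TMM scaling, low counts removed by filterByExpr), in 1 model of 6 groups (each guide without treatment, with IL-1β and with IFNγ) over the 15 libraries the study kept, for 13370 of 39859 symbols (biological coefficient of variation 12.6%). CPM use the TMM factors. DESeq2 1.42.0, limma 3.58.1 voom with sample weights and other settings were alternatives. Same-numbered NT and IL-1β libraries deviated together with r of −0.02, 0.08 and −0.01, so the numbers were not used as pairs. Gene positions are from GENCODE 44 (GRCh38) and promoters from RefSeq. Genes named are 30 fixed genes, all called genes (at most 40), up to 4 members of each of the 20 lists by p and the 10 lowest p-values for the guide difference, and the untested members named were chosen after their values were seen. The members and lists were chosen with earlier results of these data known.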

Additional observations from a re-analysis of the deposited data

How the results depend on the processing

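The count of called genes in the response was 39. It was 7 with all 18 libraries, 17 with the compared groups only and 68 with no filter on low counts, and it ranged from 19 to 87 when 1 sgERH library was left out. It stayed within 1.5 times of 39 with DESeq2's size factors in edgeR, DESeq2 (45), voom weights (40, sharing 24 of the 39) and genes of at most 20% multimapping reads. The replicate block gave 34 calls, and the block in the compared groups 27, and without replicate 2 of the IL-1β group 28; the numbers did not pair the libraries and same-numbered samples were not closest to each other throughout. For the NF-κB lists the 13 calls became 6 with all 18 libraries and were 10 to 16 elsewhere (11 to 15 on leaving out 1 library, 13 with the replicate block). The difference between guides had 0 calls, and 2 with DESeq2, 10 with voom weights, 70 with no filter, 30 with the replicate block without IL-1β replicate 2 and 0 with the replicate block alone, with a range of 0 to 140 on leaving out 1 library. The cause was not tested. No called gene reversed in 618 values under 16 alternatives, of which 427 stayed called, and 14 of 98 named genes that were not called changed sign somewhere. In all 39 called genes, against 16.3% of genes tested, the IL-1β and NT libraries did not overlap. Refits of the same libraries could therefore hardly reverse them, and the absence of reversals is not separate evidence. Depth limits genes under about 1 CPM.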
